A study of Mus musculus with 87 samples.

Results

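Mouse embryonic stem cells (ESC) that lack Suz12 and carry its short isoform as a rescue (KO-S) were compared here with wild-type (WT) ESC by polyA RNA sequencing. Described are the autosomal genes whose baseMean, the mean read count over the libraries of the comparison after division by size factors, was at least 10. These were 14140 of the 26171 gene symbols in the authors' deposited table of this comparison. Of the 14678 symbols that reached that baseMean, 527 were X-linked, 4 were Y-linked and 7 were mitochondrial or had no chromosome in the gene table used, and these were not members. The comparison held 2 KO-S and 3 WT libraries.

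The series has 87 samples, 32 of them RNA libraries, of the 129-B13 mouse ESC line and of neuronal precursors (NP) derived from it. ESC were grown in 20% serum with LIF, the cytokine that holds them in self-renewal, and no age or sex is given for the line. Besides KO-S and WT, the ESC groups used here were the full Suz12 knock-out (KO, 3 libraries), the knock-out rescued with the long isoform (KO-L, 2 libraries) and the knock-out rescued with a short isoform that carries the 3D mutation at position 196 (KO-S3D, 2 libraries). The Suz12 knock-out is thus shared by KO, KO-L, KO-S and KO-S3D, and the same WT group served all 4 comparisons. The sources place the mutated rescues in the Rosa26 locus. For KO-S they name no locus, promoter or number of clones. NP had gone through embryoid bodies and retinoic acid, and 2 NP KO-S, 2 NP WT and 2 NP KO libraries were used. Nothing says that libraries of a group came from separate cultures or clones, so p-values measure only the spread between these libraries, which may be technical.

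PRC2, the Polycomb complex that holds developmental genes silent in stem cells by placing methyl groups on histone H3 (H3K27me3), needs SUZ12 as a core subunit. Its RNA is spliced with or without exon 4, giving a long and a short protein. PRC2 works beside PRC1, which compacts chromatin and marks histone H2A, and many of its target genes start in stretches rich in the dinucleotide CG. Serum with LIF holds ESC in a mix of naive cells, which resemble the early epiblast, and cells poised to leave that state.

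The start regions shown here belong to members that changed in KO-S and whose start lies at or near regions from both deposited ChIP-seq region lists, one for H3K27me3 and one for Suz12. They are shown because genes of this kind moved both ways. Each runs from 250 bases before to 50 bases after the start site, 5′ to 3′ on the strand of the gene, from RefSeq on GRCm38.p6, with the letters CG in capitals. CG reads the same on both strands. Tns1 (chr1:74124499-74124798, minus strand), Khdc3 (chr9:73102148-73102447, plus strand) and Prph (chr15:99054924-99055223, plus strand) rose. Grb10 (chr11:12037371-12037670, minus strand; 1 of 2 listed start sites) and Igf2bp2 (chr16:22163250-22163549, minus strand) fell.
Tns1: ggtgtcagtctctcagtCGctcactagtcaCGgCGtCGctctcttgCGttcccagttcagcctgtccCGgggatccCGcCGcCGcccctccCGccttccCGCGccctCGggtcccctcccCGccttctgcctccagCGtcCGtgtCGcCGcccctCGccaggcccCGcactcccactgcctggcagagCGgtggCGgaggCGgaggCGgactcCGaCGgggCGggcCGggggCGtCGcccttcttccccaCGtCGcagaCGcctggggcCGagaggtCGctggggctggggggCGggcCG
Khdc3: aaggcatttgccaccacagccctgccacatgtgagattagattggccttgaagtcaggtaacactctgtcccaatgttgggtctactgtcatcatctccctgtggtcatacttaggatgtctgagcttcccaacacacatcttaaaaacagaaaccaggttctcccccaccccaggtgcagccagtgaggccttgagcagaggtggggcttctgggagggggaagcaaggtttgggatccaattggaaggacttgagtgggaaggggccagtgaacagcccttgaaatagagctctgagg
Prph: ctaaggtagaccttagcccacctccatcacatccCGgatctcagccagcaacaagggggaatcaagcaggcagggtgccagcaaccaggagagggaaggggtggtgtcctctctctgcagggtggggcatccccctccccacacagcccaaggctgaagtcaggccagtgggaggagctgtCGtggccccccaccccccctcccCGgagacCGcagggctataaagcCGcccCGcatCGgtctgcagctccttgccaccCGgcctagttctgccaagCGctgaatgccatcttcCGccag
Grb10: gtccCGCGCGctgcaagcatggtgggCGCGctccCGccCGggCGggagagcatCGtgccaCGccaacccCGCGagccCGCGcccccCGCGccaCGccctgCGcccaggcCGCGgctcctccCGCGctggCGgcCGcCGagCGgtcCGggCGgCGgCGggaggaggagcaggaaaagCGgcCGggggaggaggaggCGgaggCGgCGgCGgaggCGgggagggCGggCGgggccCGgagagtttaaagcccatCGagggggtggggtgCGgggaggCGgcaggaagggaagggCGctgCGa
Igf2bp2: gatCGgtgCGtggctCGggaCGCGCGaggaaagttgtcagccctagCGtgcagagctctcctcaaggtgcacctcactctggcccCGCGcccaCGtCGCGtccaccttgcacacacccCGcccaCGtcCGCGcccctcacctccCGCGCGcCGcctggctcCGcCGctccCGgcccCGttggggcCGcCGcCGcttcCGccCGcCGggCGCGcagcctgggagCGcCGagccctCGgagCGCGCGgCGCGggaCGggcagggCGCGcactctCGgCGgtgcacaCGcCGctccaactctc

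These windows differ widely in CG content. The Tns1 window holds 37 CG, and 10.7% of the 11111 members' start windows hold at least as many. Grb10 holds 45, reached by 3.62% of windows, and Igf2bp2 holds 47, reached by 2.75%. Prph holds 10, a number reached by 80.1% of windows, and in the Khdc3 window the letters CG do not occur. Khdc3 still starts inside an H3K27me3 region of 3976 bp and 102 bp outside a Suz12 region of 1885 bp. The other 4 start sites lie inside a region of each list, and the H3K27me3 region over the Grb10 start is 25611 bp wide.

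In KO-S, 610 members were higher than in WT and 464 were lower when the adjusted p of the authors' deposited table had to be under 0.05, which are 4.38% and 3.33% of the 13942 members with an adjusted p (7.7% in either direction). The other 198 members had none. The median log2 fold change over all members was -0.01, and the middle 90% of members lay between -1.15 and 1.66. Among called members the median was 1.76 for those higher and -1.63 for those lower. Rises of at least 2 on the log2 scale were counted for 247 genes, and falls of that size for 166. The smallest change called had a size of 0.73 above baseMean 10000, 0.76 from 1000 to 10000, 0.90 from 100 to 1000 and 1.69 from 10 to 100, and smaller differences at those levels were not called with these libraries. The test statistic had a robust SD of 1.38 over members. After division by it, 181 members were higher and 124 lower. Of the 95 genes that met the naming rules, 36 lost their call, among them Suz12, Islr2, Igf2, H19, Rian, Fgf5, Dnmt3b and Pax6. The 95 include genes named for a difference, such as Foxp1 and Chac1. These were not called in KO-S and had no call to lose. Calls depended on level, at 6.02% of members with baseMean from 10 to 100, 11.3% from 100 to 1000, 5.08% from 1000 to 10000 and 3.70% above. Just inside the minimum, none of 137 members with baseMean from 10 to 11 was called, and just outside it none of 161 autosomal genes from 9 to 10. All members without an adjusted p had baseMean from 10 to 100, where 3158 of 3356 had one. A gene without an adjusted p cannot be called, so these counts do not test the minimum.

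**Figure D1:**
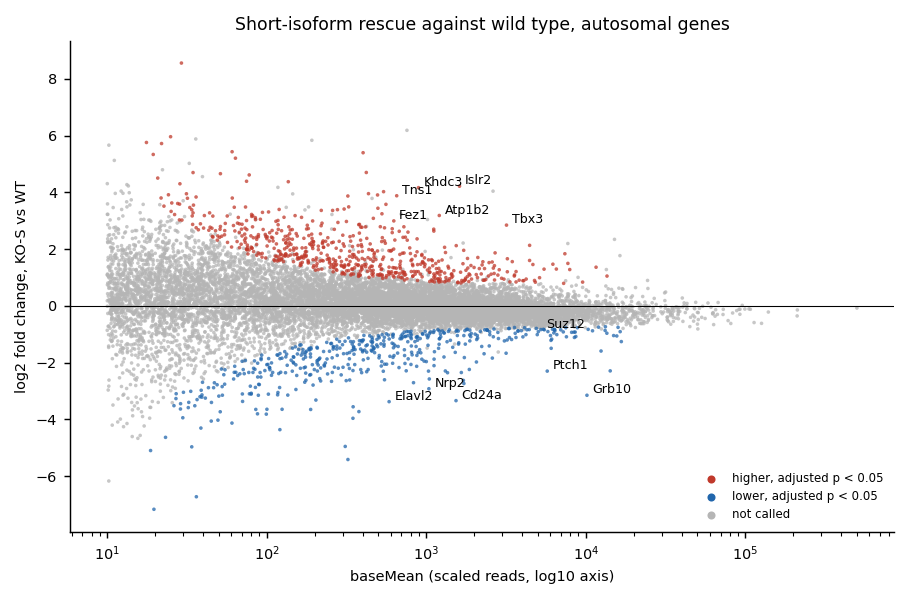
Log2 fold change of KO-S against WT (vertical axis) by baseMean (horizontal log10 axis) for all 14140 members, 1 point per gene. The 610 red and 464 blue points passed an adjusted p under 0.05. Labelled genes include Khdc3 and Tns1 at the top and Grb10, the lowest labelled gene with baseMean over 10000.

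Several facts about the libraries touch all of these values. The deposited table gives no value per library, and library totals are not in the files used. Its baseMean summed to 28736186 over all genes. Genes with a single read in 1 library took 5 levels of baseMean, 1 for each library, and gave size factors from 0.938 to 1.09, so the libraries were of similar depth. Where the read was in 1 of 4 of these libraries, the log2 fold change was -1.27, -1.25, 1.31 or 1.33, but where it was in the remaining library it was 0.03, so that library hardly entered the fold change. By the counts of groups it is a WT library. The 4 Y-linked genes were all lower in KO-S (log2 fold change -5.32 to -4.40 in the authors' deposited table). Eif2s3y, one of them, had log2 fold changes of -4.40 ± 1.34 (KO-S, ± SE), 0.54 ± 1.45 (KO), -0.83 ± 1.63 (KO-L) and 0.21 ± 1.66 (KO-S3D) in the deposited tables. Of 519 X-linked genes tested, 10 were higher (1.93%) and 56 lower (10.8%), with a median of -0.30. The part of either in the autosomal results was not tested. Across autosomes, medians ran only from -0.11 on chromosome 3 to 0.09 on chromosome 19.

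Suz12 itself, counted over the whole gene so that isoforms are not told apart, was lower in KO-S. The authors' deposited table gives -0.83 ± 0.27 (log2 fold change ± SE, adjusted p 0.0345). In the other deposited tables its values were -1.82 ± 0.22 (KO), -1.05 ± 0.28 (KO-L) and -0.06 ± 0.42 (KO-S3D). The difference of KO-S from KO was 0.98 ± 0.35 and did not pass its test (adjusted p 0.101). None of the other 11 autosomal PRC2 genes was called in KO-S. Ezh2, the catalytic subunit, was at -0.03 ± 0.26, and Eed, which binds the methylated histone tail, at -0.18 ± 0.26 in the authors' deposited table. Of 19 PRC1 members none was called, and their median was -0.17. None of 7 members next to Suz12 or 8 next to Rosa26 was called, with medians of -0.41 and -0.29.

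The 12 largest rises among called members with baseMean at or above the median of 575 were led by Islr2, Khdc3 and Tns1. BaseMean averages both groups, so a gene can reach that level through the group where it is high. Prph, for example, had a baseMean of 612 here but 214 in the comparison of KO with WT. Fez1 had 627 and 210. This filter therefore favours large changes, for the falls below as well. Islr2, a leucine-rich repeat membrane protein of developing neurons, was 4.21 ± 1.31 higher in the authors' deposited table, with by far the widest error of the 12. Khdc3, part of the maternal complex beneath the cortex of the oocyte, was 4.16 ± 0.38 higher (adjusted p 3.04e-24, authors' deposited table). Tns1, which ties actin to focal adhesions, was 3.88 ± 0.34 higher (adjusted p 4.55e-27, authors' deposited table). Several others are best known from the nervous system. Atp1b2, a subunit of the sodium pump, rose by 3.18 ± 0.33, and Fez1, a kinesin adaptor of axons, by 2.99 ± 0.33 in the authors' deposited table. Prph, an intermediate filament of peripheral neurons, rose by 2.72 ± 0.33, Epha4, a receptor for ephrins, by 2.63 ± 0.30, and Cntfr, the receptor for ciliary neurotrophic factor, by 2.60 ± 0.35 in the same deposited table. The remaining members of the 12 were Tbx3, a transcription factor of naive cells (2.84 ± 0.33), Fignl2 (2.79 ± 0.37), the autophagy receptor Calcoco2 (2.70 ± 0.45) and Igdcc3 (2.63 ± 0.32), again from the authors' deposited table.

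The 12 largest falls by the same rule included RNA-binding, signalling and chromatin proteins. Elavl2, an RNA-binding protein of neurons and germ cells, fell by 3.37 ± 0.34 in the authors' deposited table. Cd24a, a small glycoprotein of the cell surface, fell by 3.34 ± 0.40 there. Grb10, an imprinted adaptor that dampens insulin receptor signalling, had the lowest adjusted p of all 24 genes (-3.15 ± 0.26, adjusted p 1.17e-29, authors' deposited table). Igf2bp2, which binds Igf2 and other mRNAs, fell by 2.73 ± 0.33, and Lin28b, which blocks maturation of let-7 miRNAs, by 2.30 ± 0.34 in the authors' deposited table. Nrp2, a co-receptor for semaphorins, fell by 2.92 ± 0.31, and Kif1a, a motor for synaptic vesicle precursors, by 2.57 ± 0.31 in that deposited table. Also in this group were Rragd, a GTPase that recruits mTORC1 to lysosomes (-2.70 ± 0.36), and the chromatin remodelling subunit Baz1a (-2.62 ± 0.34, both from the authors' deposited table). Grhl2, a transcription factor of epithelia, fell by 2.35 ± 0.28, and Dppa3, a maternal protein that protects DNA from methylation changes, by 2.35 ± 0.41 in the authors' deposited table. Ptch1, the Hedgehog receptor, fell by 2.30 ± 0.30 there.

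**Figure D2:**
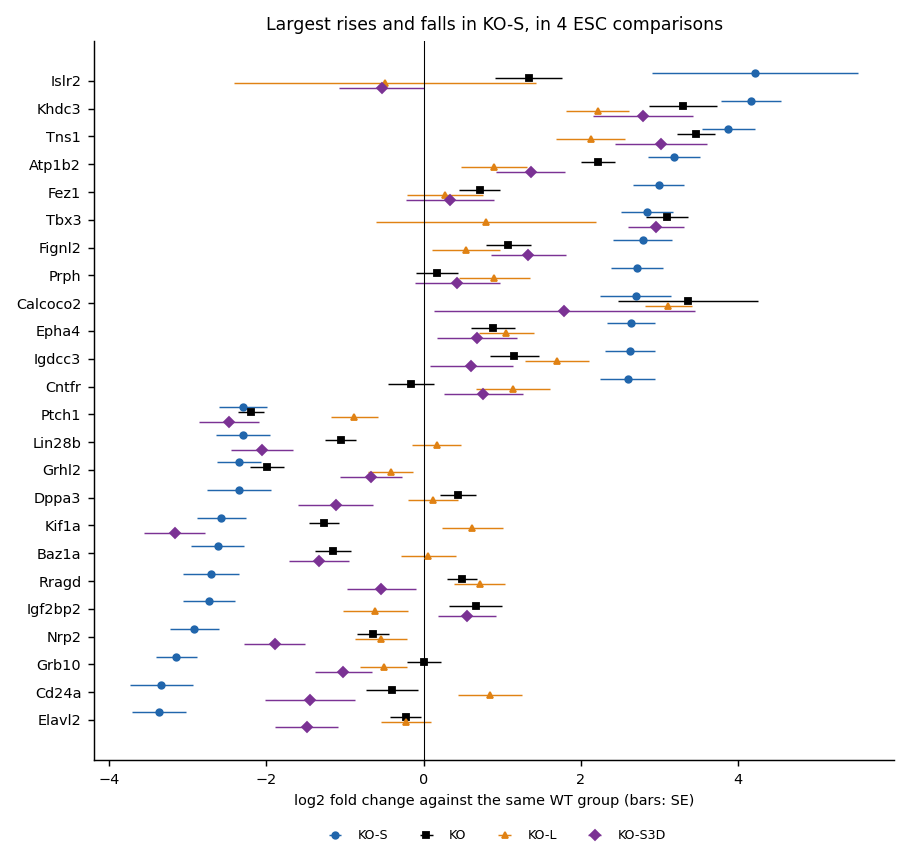
Log2 fold changes with SE bars of the 24 named genes in 4 deposited comparisons against the same WT group (KO-S blue circles, KO black squares, KO-L orange triangles, KO-S3D purple diamonds). Tns1, Khdc3 and Tbx3 lie on the right in KO as in KO-S, while for Grb10, Igf2bp2 and Rragd the KO-S point lies left of the other 3.

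KO-S was then compared with the full knock-out. Over the same members, KO had 1403 higher (10%) and 1163 lower genes (8.33%). The difference between KO-S and KO, taken gene by gene from the 2 deposited tables, passed its test for 156 members higher in KO-S (1.12%) and 333 lower (2.38%). The WT libraries may enter the 2 tables with unlike weight, as 1 of them hardly entered the KO-S fold change. Whether they do was not tested. The test also takes the tables as independent although they share the WT group. With a correlation of 0.5 assumed between them, 1436 members differed from KO, in place of 489, 1906 from KO-L, in place of 505, and 563 from KO-S3D, in place of 88. For Tbx3 the difference was -0.26 ± 0.43 (adjusted p 0.999), and for Ptch1 it was -0.09 ± 0.35 (adjusted p 0.999). For Tns1 it was 0.41 ± 0.42 (adjusted p 0.939). These 3 genes therefore showed no detectable difference between KO-S and KO, which does not show that they are equal. Prph and Cntfr, which were not called in KO, lay above KO in KO-S, by 2.55 ± 0.42 (adjusted p 4.26e-07) and 2.76 ± 0.45 (adjusted p 4.26e-07). Falls that KO did not show were seen for Igf2bp2, at a difference of -3.39 ± 0.47 from KO (adjusted p 6.63e-10), Rragd, at -3.19 ± 0.40 (adjusted p 4.86e-12), and Grb10, at -3.15 ± 0.34 (adjusted p 3.3e-16). Foxp1, a forkhead transcription factor, went the other way. It was -2.74 ± 0.19 in KO and -0.32 ± 0.28 in KO-S in the authors' deposited tables, a difference of 2.42 ± 0.34 (adjusted p 6.23e-10). Naprt, an enzyme of NAD synthesis, was -2.64 ± 0.23 in KO and -0.17 ± 0.29 in KO-S in those deposited tables, a difference of 2.47 ± 0.37 (adjusted p 1.66e-08).

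Against the long isoform, which had 172 higher (1.3%) and 104 lower (0.784%) genes over the same members, KO-S differed for 182 genes that were higher in KO-S (1.31%) and 323 that were lower (2.33%). Cd24a lay below KO-L with a difference of -4.18 ± 0.56 (adjusted p 3.01e-10), and Dsp, the desmosome protein desmoplakin, with -3.78 ± 0.47 (adjusted p 5.9e-12). For Thbs1, a secreted matrix glycoprotein, the difference from KO-L was -3.65 ± 0.58 (adjusted p 1.53e-07). Among members with baseMean at or above the median, Igf2 also had 1 of the 4 most negative differences, and its values are given with the imprinted genes. Among the positive differences were 2 genes of the amino-acid stress response, Chac1 (4.98 ± 0.50, adjusted p 1.15e-19) and Trib3 (3.42 ± 0.47, adjusted p 4.36e-10). Neither was called in KO-S, and both were low in KO-L (-3.97 ± 0.33 and -2.76 ± 0.34 in the authors' deposited table). The stress list as a whole had 0 of 18 members called in KO-S, 7 lower in KO-L, and 5 for which KO-S lay above KO-L. Trf, the iron carrier transferrin, was 2.41 ± 0.32 in KO-S and -0.54 ± 0.45 in KO-L in the deposited tables. Inhbb, an activin subunit, was 1.54 ± 0.30 in KO-S and -1.46 ± 0.47 in KO-L there.

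The mutated short isoform differed from the unmutated one least often by count. KO-S3D had 255 higher (1.87%) and 137 lower (1.01%) genes over the same members, and the difference passed for 27 members higher in KO-S (0.194%) and 61 lower (0.437%). The median SE of that difference was 0.55, against 0.42 for the difference from KO and 0.49 for the difference from KO-L, so the counts do not rank the groups by likeness. The difference was -3.28 ± 0.50 for Igf2bp2 (adjusted p 2.47e-07) and -2.62 ± 0.55 for Peg10, an imprinted gene of retrotransposon origin (adjusted p 0.00139). Zc3hav1, an antiviral zinc finger protein, was 2.04 ± 0.38 in KO-S3D and -0.42 ± 0.31 in KO-S in the authors' deposited tables. Mrgpra6, a receptor gene of a large family whose copies may share reads, had a difference of -2.90 ± 0.46 (adjusted p 1.98e-06). Fez1 lay 2.66 ± 0.65 above KO-S3D (adjusted p 0.0105). Trf (2.69 ± 0.61) and Frmd4b (2.86 ± 0.74) also had large positive differences.

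Imprinted genes, which are expressed from the copy of 1 parent, had the most falls of the 24 gene lists. Of 25 listed, 24 were in the deposited table, 22 reached the minimum, 11 of these were lower and 0 higher, against 3.33% lower over all members. With the statistic divided by its robust SD 5 stayed lower, and Igf2, H19, Rian, Mest, Nnat and Ndn lost their call. The median of the 22 was -1.58, and 21 of 22 lay below 0. Members that neighbour each other, such as H19 and Igf2, are not separate observations. The growth-related genes Igf2 (-1.64 ± 0.40) and Grb10 and the noncoding H19 (-2.17 ± 0.68, adjusted p 0.022), which neighbours Igf2, were among those lower in the authors' deposited table. The 11 hold genes known for expression from the paternal copy, such as Igf2 and Peg10, and from the maternal copy, such as H19 and Phlda2. Peg10 was -2.29 ± 0.32 and Phlda2, a brake on placental growth, -2.13 ± 0.34 in the authors' deposited table. Plagl1, a zinc finger factor, was -3.81 ± 0.73, Peg3 -1.54 ± 0.30 and Mest -1.43 ± 0.38 in the authors' deposited table. The noncoding Rian was -5.41 ± 1.80 (adjusted p 0.0369, authors' deposited table), with the largest SE of the 11. Ndn (-1.53 ± 0.46) and Nnat (-1.37 ± 0.35) complete the 11 in the authors' deposited table. Slc38a4, an amino acid transporter, was at 0.07 ± 0.27 and not called there.

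The other ESC comparisons, which share the WT libraries, gave the imprinted genes other values. In KO, 5 of the imprinted members were higher and 2 lower, with a median of 0.48, and in KO-L 3 were higher and 0 lower, with a median of 0.34. In KO-S3D, 1 was higher and 2 lower, with a median of 0.10. Over all members 10% were higher and 8.33% lower in KO, 1.3% and 0.784% in KO-L, and 1.87% and 1.01% in KO-S3D. KO-S lay below KO for 10 of the 22, below KO-L for 12 and below KO-S3D for 5, and above none of the 3 for any. The shares lower in KO-S over all members tested were 2.38%, 2.33% and 0.437% in that order. For Plagl1 the difference from KO was -6.46 ± 0.77 (adjusted p 2.18e-13). Igf2 was 2.26 ± 0.87 in KO and 2.18 ± 0.29 in KO-L in the authors' deposited tables, so that the differences of KO-S from them were -3.90 ± 0.95 and -3.82 ± 0.50. H19 was 4.41 ± 1.16 in KO in the deposited table, and the KO-S minus KO difference was -6.58 ± 1.34 (adjusted p 0.00014). Zfp57, a protein that guards methylation at imprinted regions, was 0.83 ± 0.28 higher in KO-S in the authors' deposited table (adjusted p 0.0349). Dnmt3b, a de novo DNA methyltransferase, was 1.59 ± 0.36 lower there, and the other 8 DNA methylation genes were not called. With the statistic divided by its robust SD, neither Zfp57 nor Dnmt3b stayed called. Any link of these 2 genes to the imprinted genes was not tested. Methylation was not measured in the files used.

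**Figure D3:**
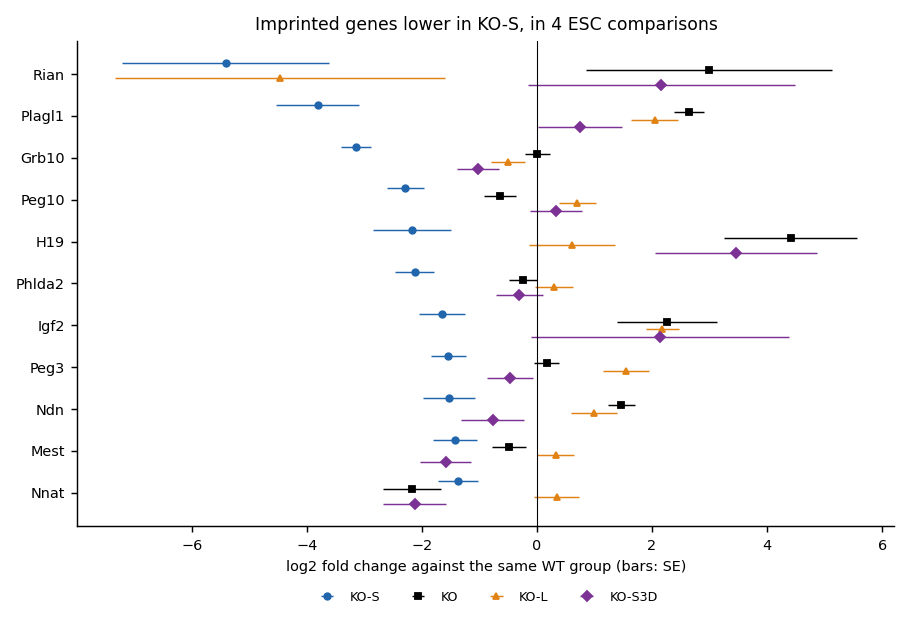
Log2 fold changes with SE bars of the 11 imprinted genes called lower in KO-S, in 4 deposited comparisons against the same WT group. All KO-S points (blue circles) lie left of 0, whereas KO (black squares) and KO-L (orange triangles) points lie on both sides.

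The stem cell state was read from its transcription factors. The general ESC genes were abundant, with baseMean of 26455 for Pou5f1, 11700 for Nanog and 11348 for Zfp42 in the authors' deposited table. All 3 were within 0.2 of no change there (-0.18 ± 0.25, 0.03 ± 0.26 and -0.01 ± 0.26), and none was called. Over all members 4.38% rose and 3.33% fell, the shares to set beside the next 2 lists. Of 13 naive pluripotency members, 4 rose and 1 fell, with a median of 0.19. The rises were Tbx3, Klf4 (1.47 ± 0.28), Tcl1, a cofactor of the kinase Akt (1.55 ± 0.34), and Tfcp2l1 (1.05 ± 0.27) in the authors' deposited table, and the fall was Dppa3. Of 14 core and formative members, 0 rose and 6 fell, with a median of -0.38, and 4 of the 6 stayed lower with the statistic divided by its robust SD. The 6 were genes of cells leaving the naive state. Lef1, a partner of beta-catenin, was -4.95 ± 0.57, Fgf5 -3.73 ± 0.94 and Zic2 -2.63 ± 0.40 in the authors' deposited table. Fgf15 was -2.19 ± 0.44, Otx2 -1.63 ± 0.32 and Dnmt3b, named above, -1.59 ± 0.36 in the same deposited table. In bulk RNA, fewer cells of a state and less RNA per cell cannot be told apart.

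Of the 6, Zic2 differed from KO, KO-L and KO-S3D alike. Its values were 0.75 ± 0.20 (KO), 1.18 ± 0.33 (KO-L) and 1.25 ± 0.40 (KO-S3D) in the authors' deposited tables, with differences of -3.38 ± 0.45, -3.82 ± 0.52 and -3.89 ± 0.57. Lef1 also lay below all 3, with differences of -4.16 ± 0.73, -5.60 ± 0.73 and -3.40 ± 0.74. Dnmt3b did not differ detectably from KO (0.06 ± 0.82, adjusted p 0.999), where its own SE was wide. Klf4 was 1.46 ± 0.23 in KO in the authors' deposited table, and its difference from KO-S was 0.01 ± 0.36 (adjusted p 0.999). In KO, 7 naive members were higher and 0 lower, and 2 core and formative members were higher and 3 lower. Over all members 10% were higher and 8.33% lower in KO.

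The signalling genes called were few and moved in both directions. Of 25 Wnt, Nodal and BMP members, 2 rose and 4 fell, and with the robust scaling only Axin2 and Lef1 stayed called. Over all members 4.38% rose and 3.33% fell, the shares to set beside this list and those below. Axin2, which feeds back on Wnt signalling, was 1.74 ± 0.37 and Lefty2, which feeds back on Nodal, 0.84 ± 0.26 in the authors' deposited table. Lef1, the ligand gene Wnt7b (-1.49 ± 0.46) and the BMP-responsive inhibitors Id2 (-1.94 ± 0.44) and Id3 (-1.74 ± 0.43) fell in the same deposited table. Id3 was 1.35 ± 0.30 in KO and 2.10 ± 0.33 in KO-L in the deposited tables, and KO-S lay below both (adjusted p 9.27e-07 and 1.49e-09). Of 14 immediate-early members 0 rose and 3 fell, with 13 of 14 below 0. These were Egr1 (-2.35 ± 0.36), Jun (-1.64 ± 0.38) and Junb (-1.15 ± 0.35) in the authors' deposited table, of which Egr1 alone stayed called with the robust scaling. All 15 sterol synthesis members lay below 0, with a median of -0.63. Of 16 glycolysis and hypoxia members 2 rose, Car9, a carbonic anhydrase (3.80 ± 0.79), and Vegfa (1.09 ± 0.38, adjusted p 0.0493, authors' deposited table). None of 9 interferon-stimulated or 13 ribosomal protein members was called.

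Classic developmental targets of Polycomb were mostly below the minimum or uncalled. Of 39 Hox genes 34 lay below baseMean 10, and of the 5 members only Hoxb13 rose (3.33 ± 1.09, adjusted p 0.0345, authors' deposited table). All 5 were higher in KO, with a median of 3.43 there against -0.21 in KO-S, and 2 lay below KO in KO-S. Of 11 neural members 3 rose and 2 fell, and with the robust scaling only Sox1 stayed called. The neural plate factor Sox1 (2.35 ± 0.52), Olig2 (1.17 ± 0.35) and Islr2 rose, whereas Pax6 (-2.51 ± 0.64) and the filament gene Ina (-1.13 ± 0.30) fell in the authors' deposited table. Another 10 neural genes were below the minimum and 1 was X-linked. Of 9 mesoderm members Tbx5 (5.96 ± 1.50, at a low level) and Hand1 (2.28 ± 0.60) rose in the authors' deposited table, and 7 more were below the minimum. Tbx5 had a baseMean of only 3.01 in the comparison of KO-L with WT and 3.28 in that of KO-S3D. In that of KO, where it also rose, it had 19.04. Tbx5 thus reached the minimum here through KO-S, not through WT. With the robust scaling none of Tbx5, Hand1 and Hoxb13 stayed called, and no trophoblast member did. Of 11 trophoblast members Hand1 rose and Tfap2c (-1.35 ± 0.30) and Ascl2 (-3.21 ± 1.05) fell in that deposited table. Of 12 cell cycle members only Cdkn2a, which encodes p16 and ARF and is a textbook PRC2 target, was called (2.15 ± 0.47), and it was 2.88 ± 0.29 in KO in the authors' deposited tables.

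Germline genes split. Of 17 members 3 rose and 2 fell in KO-S (with the robust scaling only Stra8 and Dmrt1 stayed called), against 12 higher and 0 lower in KO, and KO-S lay below KO for 6. Stra8, needed for entry into meiosis, was 2.16 ± 0.44, Brdt, a testis bromodomain protein, 2.43 ± 0.64, and Piwil2, a piRNA-binding protein, 1.49 ± 0.38 in the authors' deposited table. Dmrt1, a factor of the male germline, was -2.03 ± 0.33 and Rpl10l, a testis copy of a ribosomal protein gene, -1.87 ± 0.43 there. Rpl10l is a near copy of an X-linked gene, so the authors' counting may divide reads between them. It was 2.40 ± 0.20 in KO in the deposited table, and the KO-S minus KO difference was -4.27 ± 0.48 (adjusted p 1.89e-15). Of 9 oocyte and 2-cell members Khdc3 rose, and Dppa3 and Nlrp14 (-2.69 ± 0.88) fell in the authors' deposited table. Another 10 oocyte genes were below the minimum.

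Markers of other cell types were examined as fixed lists, and the endoderm genes had wide errors. Of 11 endoderm members 0 were called, yet 10 of 11 lay above 0 with a median of 3.04 and a median SE of 1.37, against 0.34 over all members. Gata4 was at 3.04 ± 1.55, Gata6 at 3.79 ± 1.91 and Sox17 at 5.83 ± 3.22 in the authors' deposited table. The endocytic receptor Cubn was at 4.04 ± 2.39 and Pdgfra at 3.23 ± 1.88 there. Among the 6936 members with baseMean at or above the median and an ordinary symbol, only 18 had an SE of at least 1, and Gata4, Cubn, Pdgfra and Dab2 were 4 of them. Others of the 18, named here after their values were seen, were the basement membrane genes Col4a1 (2.34 ± 1.29), Col4a2 (2.20 ± 1.50) and Lama1 (1.77, with an SE over 1) in the authors' deposited table, and Islr2. With no value per library, the source of these wide SE was not tested, nor was the part of these genes in the other results. Of 14 matrix genes used as fibroblast markers, Col6a2 (2.82 ± 0.46), Thy1 (2.48 ± 0.45) and Vim (1.70 ± 0.35) rose in the authors' deposited table, with a list median of 0.00. The defining fibroblast genes Dcn, Lum, Postn and Prrx1 all had baseMean under 10.

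**Figure D4:**
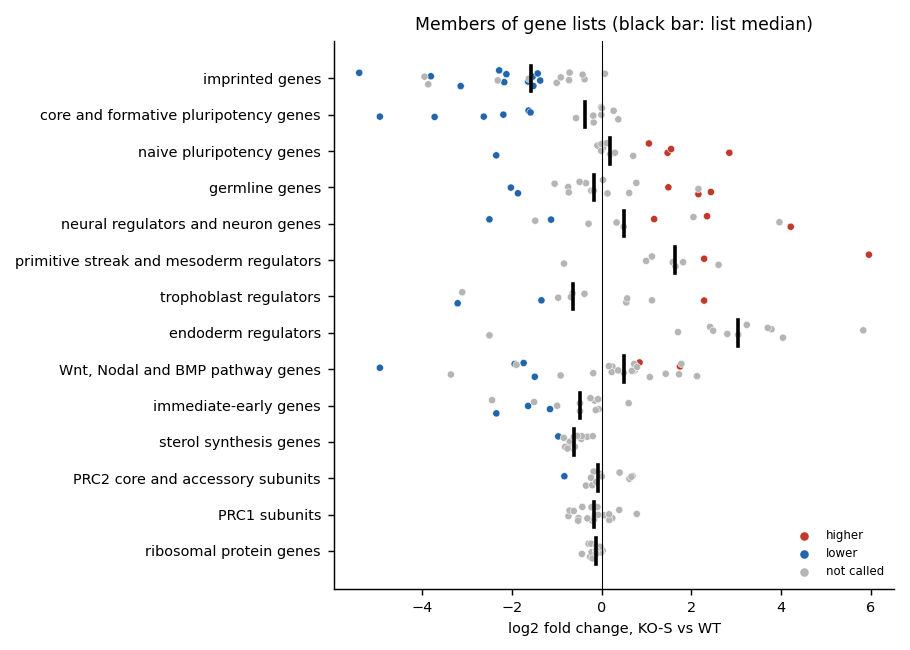
Log2 fold change of KO-S against WT (horizontal axis) for the members of 14 gene lists, 1 point per gene, with black bars at list medians and height within a row random. Imprinted genes centre at -1.58 with 11 blue points, while endoderm genes centre at 3.04 with none called.

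Calls were more frequent at genes that start at deposited ChIP-seq regions. A start site was listed for 11111 members, and a gene was placed at a region where its start lay within 2500 bp. The lists hold 6882 H3K27me3 and 2865 Suz12 regions, whose names carry WT. Their headers give a false discovery rate of 5% but no compared group, direction or build, and mm10 is the mouse build in the submitters' processing notes. Of 1057 tested members at both kinds of region, 117 were higher (11.1%) and 126 lower (11.9%). At an H3K27me3 region alone, 121 of 1216 were higher (9.95%) and 57 lower (4.69%). At neither, 213 of 8701 were higher (2.45%) and 150 lower (1.72%). Their medians were 0.08, 0.36 and -0.04 in that order. In KO the same classes had medians of 0.55, 0.24 and -0.11. These classes also differ in level, with median baseMean of 98.3, 217 and 836, and members at both kinds had a median SE of 0.61 against 0.31 at neither.

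Members at both kinds of region thus fell about as often as they rose. The 4 rises there with the lowest adjusted p were Tns1, Khdc3, Epha4 and Prph, and the 4 falls were Grb10, Nrp2, Kif1a and Igf2bp2, of which 5 have their start windows printed. Start windows of members at both kinds of region held a median of 26 CG, against 20 over all members with a window. Among members at both kinds of region the median was 25 CG for those higher and 26 for those lower. Over all called members with a window, at a region or not, it was 18 for those higher in KO-S and 23 for those lower. Of the 6 members at a Suz12 region alone, 0 rose and 2 fell, among them Peg3.

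**Figure D5:**
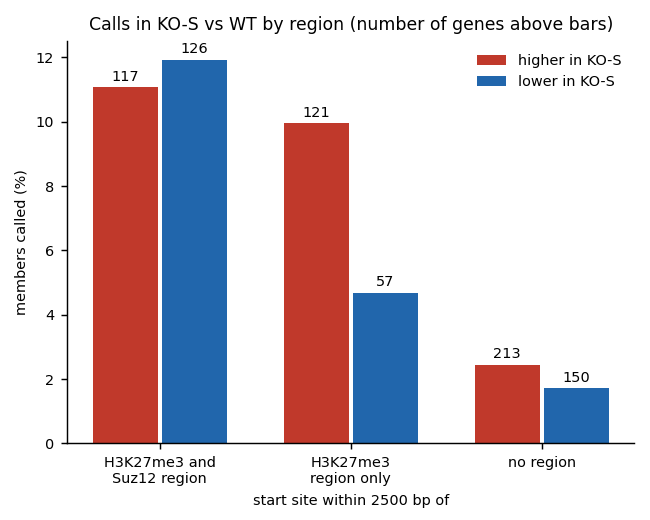
Percent of tested members called higher (red) or lower (blue) in KO-S by the deposited regions within 2500 bp of their start site, with numbers of genes above the bars. At both kinds of region the bars stand at 11.1% and 11.9%, and with no region at 2.45% and 1.72%.

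In neuronal precursors, KO-S and WT had each been compared with KO, and their difference was taken from those 2 deposited tables, which share no library with the ESC table. Of 13595 members tested, 387 were higher in NP KO-S than in NP WT (2.85%) and 209 lower (1.54%). Of 587 members higher in ESC KO-S and tested in NP, 61 were higher there as well (10.4%) and 16 were lower (2.73%). Of 457 members lower in ESC KO-S, 48 were higher in NP (10.5%) and 29 lower (6.35%). Across all 13595 members the ESC and NP values had a Spearman rho of 0.10 and a Pearson r of 0.14, given as a description over genes, which are not independent. Tbx3 was higher in both, by 1.55 ± 0.37 in NP (adjusted p 0.00195), and so was Hoxb13, by 3.90 ± 0.40 in NP. Elavl2 was lower in both, at -1.46 ± 0.41 in NP (adjusted p 0.0131), as was H19, with an NP difference of -2.02 ± 0.31. The largest falls of NP KO-S among members with an ESC baseMean at or above the median were neuronal genes. Mapt, which encodes tau, lay at -2.49 ± 0.59 and Tubb3, the neuronal beta-tubulin, at -2.09 ± 0.34. Crmp1 lay at -2.19 ± 0.34 and Stmn2 at -1.93 ± 0.36. The largest rises were Trh (4.38 ± 0.84), Lefty1 (3.59 ± 0.80), Fgf4 (2.91 ± 0.90) and Wfdc2 (2.86 ± 0.35), of which none was called in ESC KO-S.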

How the data were processed

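PolyA RNA-seq of 2 KO-S and 3 WT ESC libraries was read from comparison tables, not from reads. The authors' deposited tables have column names as DESeq2 writes them, and the submitters' processing notes list TopHat, Bowtie, DESeq2, DiffBind and the build mm10 without roles or versions. Per the file headers, baseMean is a deposited signal: counts over size factors, averaged across libraries. The deposited fold changes and SE are log2 values, and the deposited statistic is a score, the fold change over its SE. The authors' p-value and adjusted p-value were taken as deposited, with calls made under an adjusted p of 0.05. Library depths are not in the files used, so no interval per library is given. The planned count test applied only to tables of counts; the tables held none, so no test was refitted.

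KO-S was compared with KO, KO-L, KO-S3D and, in NP, with WT by the difference of 2 deposited fold changes over the root of their summed squared SE, with two-sided normal p-values and Benjamini-Hochberg adjustment over all members tested. The method was also run on simulated normal errors of the deposited SE, which does not test whether those SE are right. Python 3.11.15, pandas 2.3.3, numpy 2.4.6, scipy 1.17.1 and matplotlib 3.10.9 were used. Chromosomes and start sites came from RefSeq tables of GRCm38.p6. Genes named were the 12 largest rises and falls and the 6 lowest adjusted p per direction among called members with baseMean at or above the median, leaving out symbols of Gm plus digits or ending in Rik; Suz12; called members of the gene lists; the 4 largest differences per direction and comparison among those past the test, with the same limits on baseMean and symbol; and the 4 genes per direction with the lowest adjusted p at both kinds of region. Uncalled list members are named where their value is given. Some genes that met these rules are not reported here. The members, the 24 lists and the tests were chosen with earlier results of these data known. Alternatives were other adjusted p thresholds and baseMean minimums, adjustment over members alone, centring, a robust scaling of the statistic, a correlation of 0.5 between the compared values, and other windows and region thresholds.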

Additional observations from a re-analysis of the deposited data

Results flagged for a closer look

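For 9 named genes KO-S and KO-L were called in opposite directions against the same WT group. The difference itself passed its test (adjusted p at most 0.000122). The genes were picked for their opposite directions, so the test describes them and does not stand apart from the choice. With the robust scaling Fgf5, Id3, Igf2, Thbs1 and Vegfa lost their call in KO-S. The KO-S minus KO-L difference on the log2 scale was -6.17 for Fgf5, -5.86 for Plagl1, -3.84 for Id3, -3.82 for Igf2, -3.82 for Zic2, -3.78 for Dsp, -3.65 for Thbs1 and -3.09 for Peg3. For Vegfa it was 2.79. Thus 8 of the 9 were lower in KO-S and higher in KO-L, and Igf2, Plagl1 and Peg3 are imprinted genes.

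For 8 named genes the KO-S effect had opposite directions in ESC and NP. The ESC minus NP difference of the effect was -6.69 ± 1.08 (SE) for Fgf5, -4.16 ± 0.48 for Grhl2, -3.76 ± 0.49 for Igf2, -3.49 ± 0.45 for Dsp, -2.97 ± 0.52 for Thbs1 and -2.95 ± 0.42 for Peg3. It was 4.66 ± 0.51 for Fez1 and 3.82 ± 0.71 for Mapt. Adjusted over these 8 genes, which were picked for their opposite directions, the highest p was 6.97e-08, so the test describes them and does not stand apart from the choice.

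The X and Y chromosomes, which are outside the members, also changed. Of X-linked genes tested, 10.8% were lower in KO-S. All 4 Y-linked genes with baseMean of at least 10 (Ddx3y, Eif2s3y, Uba1y and Uty) were lower. In NP, where KO-S was compared with KO, Eif2s3y was at -3.32 ± 0.28 and Uty at -3.48 ± 0.32 in the authors' deposited table.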

How the results depend on the processing

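Counts kept within 1.5 times of their main value except under the settings given here. At an adjusted p under 0.01, 378 members were higher and 267 lower in KO-S than in WT, 276 differed from KO, 275 from KO-L, 49 from KO-S3D, and 336 between KO-S and WT in NP. Dividing the statistic by its robust SD left 181 higher and 124 lower. Assuming a correlation of 0.5 between the compared values, as a shared reference group can give, 1436 members differed from KO, 1906 from KO-L, 563 from KO-S3D and 1546 in NP. With only the regions whose listed value was at or below the list's median, 51 members at both kinds of region were higher and 63 lower. Adjustment over members alone ended the call of 1 of 95 named genes (Vegfa), and centring ended none.

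No paired analysis was possible because the tables hold no value per library; their names say that the authors' comparison was paired. For the same reason leaving out single libraries was not run, so which KO-S library a value rests on is not known. With 2 KO-S libraries, a WT library that hardly entered the fold change, and unknown clone numbers, differences of clones and of the rescue cannot be told apart.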

Other observations

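The lists in this section were chosen after the values were seen, so their counts describe and do not test. Of 24 genes of epithelial junctions and identity, 14 were lower in KO-S and 0 higher, against 3.33% and 4.38% over all members. Their median log2 fold change was -0.98. Cdh3, which encodes P-cadherin, was at -2.29 ± 0.30, the splicing factor Esrp1 at -2.24 ± 0.35 and the tight junction gene Cldn7 at -2.06 ± 0.33 in the authors' deposited table. The abundant genes Epcam (-1.01 ± 0.26) and Cdh1, E-cadherin (-0.91 ± 0.28, adjusted p 0.0227), fell less in the authors' deposited table. KO-S lay below KO for 9 of the 24 and below KO-L for 9, against 2.38% and 2.33% of all members tested. In NP, 15 of the 24 were higher in KO-S than in WT and 0 lower, against 2.85% and 1.54% of members tested. Mapt, Tubb3, Crmp1 and Stmn2 were lower in NP KO-S.

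Of 7 genes of the LIN28, IGF2BP and HMGA families, 5 were lower in ESC KO-S and 0 higher, with all 7 below 0. Over all members 3.33% were lower and 4.38% higher. Igf2bp2 and Lin28b were already among the largest falls when this list was made. Igf2bp3 was at -1.69 ± 0.33, Hmga2 at -1.29 ± 0.40 and Igf2bp1 at -0.96 ± 0.27 in the authors' deposited table, beside Igf2bp2 and Lin28b.

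Of 18 members of a list of fatty acid use genes, 5 rose and 1 fell, against 4.38% and 3.33% over all members. The list median was 0.50. Cpt1a, which admits fatty acids to mitochondria, was at 2.13 ± 0.35, the thiolase Acaa2 at 2.36 ± 0.35 and the carnitine carrier Slc25a20 at 1.88 ± 0.29 in the authors' deposited table. The fatty acid transporter Slc27a2 was at -1.96 ± 0.38 there.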
